A study of Mus musculus with 30 samples.

Results

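Mutations in the genes Mapt, Tardbp, Vcp, Chmp2b, Tbk1, Optn and Sqstm1 are linked to frontotemporal dementia (FTD) or amyotrophic lateral sclerosis (ALS) in people, and their RNA was compared here in mouse brains with and without Tmem106b. All 7 were found by their names among the 34871 genes of the deposited table and were among the 23695 tested. RNA of the cerebral hemispheres was sequenced from 30 mice aged 8 months. 10 mice were wild type (WT, Tmem106b +/+), 10 carried 1 working copy of Tmem106b (HET, +/-) and 10 carried none (KO, -/-). Each genotype held 5 females and 5 males, with 6 mice of cohort 1 and 4 of cohort 2. RNA of all brains was extracted in a single experiment, so a cohort is not an extraction batch, and what else a cohort stands for is not given in the sources used here. Strain, litter, the part of Tmem106b that was targeted and whether other alleles were carried are also not given there. Each library is 1 mouse, so p-values measure the spread between mice.

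TMEM106B is a lysosomal membrane protein, and common variants of its gene modify the risk of frontotemporal dementia. The other genes act at several points of RNA handling, membrane remodelling and the clearance of protein. Tau, the product of Mapt, binds axonal microtubules, and TDP-43, the product of Tardbp, is a nuclear RNA-binding protein; each forms the aggregates of a major class of frontotemporal dementia. VCP is an ATPase that extracts ubiquitinated proteins, CHMP2B is a subunit of the ESCRT-III complex that cuts membrane necks at endosomes, and TBK1 is a kinase that phosphorylates the autophagy receptors OPTN and SQSTM1 (p62).

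Values are log2 RPKM (reads per kilobase of gene and per fixed number of reads) after the authors' conditional quantile normalization, a scale on which genes can be compared per length. Tmem106b itself averaged 9.17 ± 0.07 (SD, n = 10) across WT brains, 8.58 ± 0.03 across HET brains and 7.53 ± 0.08 across KO brains. All 10 KO and all 10 HET brains were below every WT brain. Markers of every cell type checked in a brain hemisphere were present, with none of the 51 at a mean below 0 in any group: neuronal markers averaged 10.70 in WT brains and astrocyte markers 9.23. The libraries' medians over all genes lay between 2.82 and 2.91, the depth of the libraries is unknown because the table gives no counts, and RNA integrity numbers (RIN) ran from 8.5 to 10.

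In level, the set spanned a wide range. Sqstm1 was highest with a mean of 10.23 ± 0.05 log2 RPKM over the 30 brains, above 98.2% of the genes tested. Mapt followed at 9.85 ± 0.05, Chmp2b at 9.17 ± 0.05, Tardbp at 8.75 ± 0.06 and Vcp at 8.57 ± 0.07. Tbk1 at 7.64 ± 0.11 and Optn at 6.29 ± 0.10 were lowest, and Optn still lay above 62.6% of the genes. Neighbours in this order did not share any value except Tardbp and Vcp, whose brains ran from 8.64 to 8.86 and from 8.44 to 8.67. Once genotype, sex, cohort and RIN were fitted, 6 of the 7 genes varied less between brains than the median gene of like level (within 0.5 log2). The residual SD of Sqstm1 was 0.042, lower than in all but 11.7% of the 462 genes of like level, that of Chmp2b was 0.040 and that of Mapt 0.047. Tbk1 (0.072) and Optn (0.082) had wider residual spreads, and Tbk1 was the exception, above 59.0% of 2962 genes of like level.

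No gene of the set passed the test between genotypes. In limma's test with Benjamini-Hochberg adjustment over the 23695 genes, 0 of 7 passed an adjusted p of 0.05 for KO against WT, where 1.00% of all genes passed. The same count was 0 of 7 for HET against WT (0.00422% of all genes) and 0 of 7 for KO against HET (0.118%). For the slope over 0, 1 or 2 deleted copies it was also 0 of 7 (1.02%). At an unadjusted p under 0.05 the number was again 0 in each of these comparisons, against 2846, 1497 and 2052 genes of the whole table in the 3 pairwise comparisons. A 2-sided permutation of the genotype labels (100000 resamples) compared plain means, with no term for sex, cohort or RIN. It gave no p under 0.05 for any gene of the set, the lowest being 0.228 for Vcp in HET against WT. The comparisons share groups: KO and HET were set against the same WT brains. In a bulk hemisphere, fewer cells of a type and less RNA per cell cannot be told apart.

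**Figure D1:**
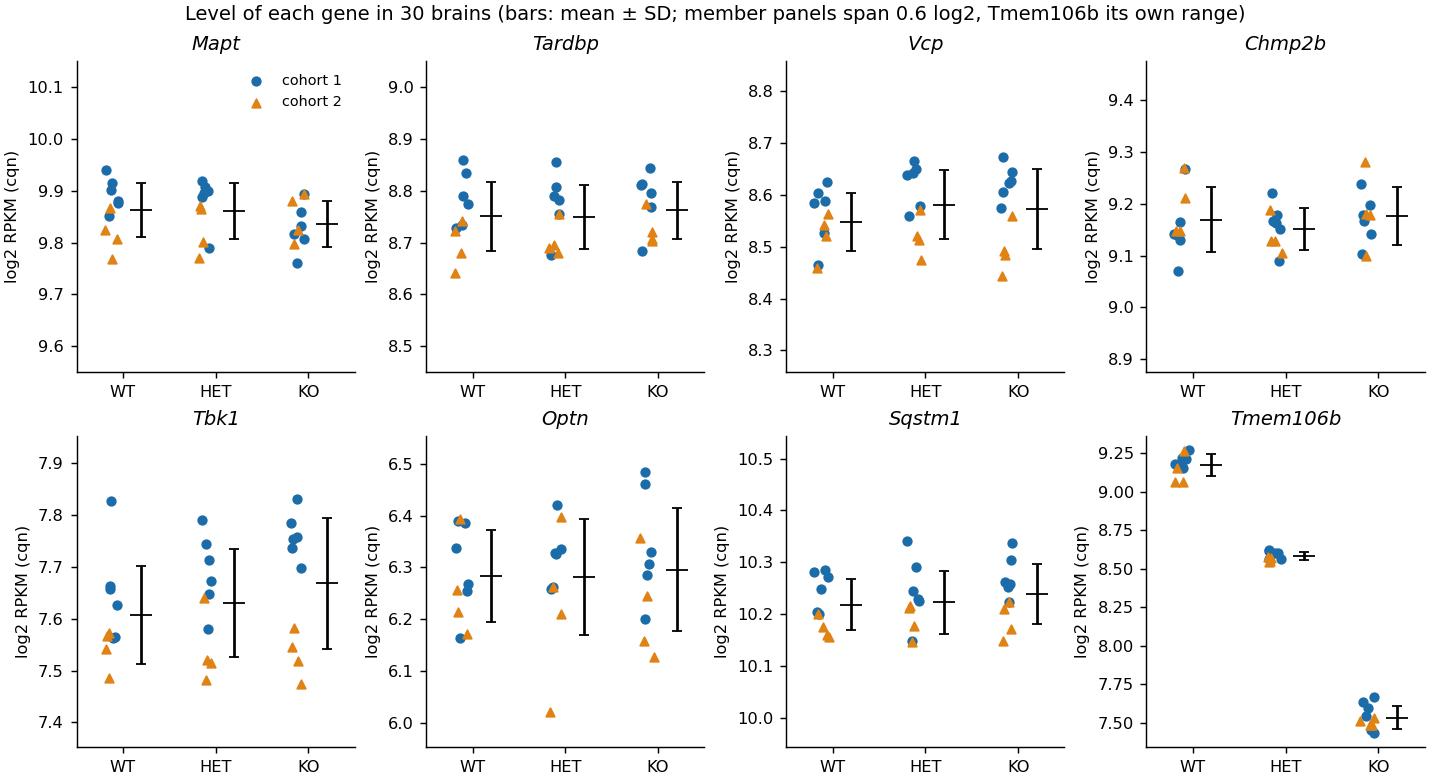
Level of each gene in log2 RPKM in each of the 30 brains, by genotype, with circles for cohort 1, triangles for cohort 2 and bars for the mean ± SD of the 10 brains of a genotype. The 3 genotypes overlap for every gene of the set, while the KO brains lie apart from the WT brains for Tmem106b, whose panel has a wider axis.

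The size of change that these brains leave possible was narrow, where the difference is taken as the same in both sexes and cohorts. The 95% intervals of all 7 KO-WT differences lay between -4.69% and 9.20% of the WT level. Those of the HET-WT differences lay between -4.54% and 6.68%, and those of the KO-HET differences between -4.89% and 7.19%. The intervals are for each gene alone and were not widened for the 7 genes read together. Within 1 sex or 1 cohort the KO-WT intervals were wider. In males they reached from 0.024 to 0.228 log2 for Tbk1 and from -0.146 to -0.021 for Mapt (adjusted p = 0.297 and 0.26 in limma). On the log2 scale the KO-WT intervals were 0.077 to 0.15 wide, against a median width of 0.25 over all genes tested. The median KO-WT difference was 0.016 for the set and 0.0061 for all genes, and 6 of 7 differences were above 0, as were 53.3% of those of all genes.

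**Figure D2:**
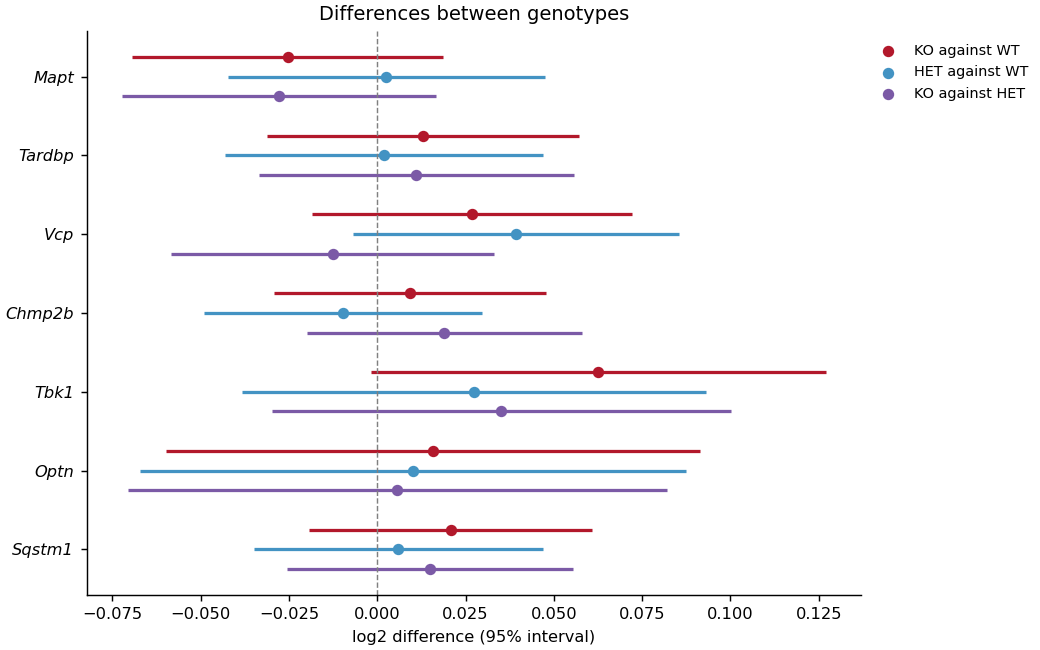
Fitted log2 differences of each gene between genotypes (points) with their 95% intervals (lines), for KO against WT, HET against WT and KO against HET. Every interval includes 0, and the interval reaching farthest from it is that of Tbk1 for KO against WT, which ends at 0.13.

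Mapt (ENSMUSG00000018411) lies at chr11:104231390-104332090 (mm10), where positions of genes are those of the deposited table. In GENCODE M21 Mapt is on the plus strand and, like the other 6 genes, protein-coding. Its lowest, median and highest levels were 9.77, 9.87 and 9.94 log2 RPKM in WT brains, 9.77, 9.88 and 9.92 in HET brains and 9.76, 9.83 and 9.89 in KO brains. The groups overlapped almost fully, with 1 KO brain below every WT brain and none above. KO minus WT was -0.025 ± 0.022 (log2, SE; adjusted p = 0.702), an interval of -4.69% to 1.31%. HET minus WT was 0.0026 ± 0.022 and KO minus HET -0.028 ± 0.022.

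Mapt had the lowest p of the set for a KO-WT difference that varied by sex. KO minus WT was 0.037 ± 0.029 within the 15 females and -0.084 ± 0.029 within the 15 males. The test of that difference gave -0.12 ± 0.039 with an unadjusted p of 0.00541 and an adjusted p of 0.556 in limma. By cohort, KO minus WT was -0.066 ± 0.026 in the 18 brains of cohort 1 and 0.037 ± 0.036 in the 12 of cohort 2, and the test of the difference between cohorts gave 0.10 ± 0.041 with an adjusted p of 0.472. Of the set, 0 of 7 genes passed the test by sex and 0 of 7 that by cohort, where 0% and 0.0338% of all genes passed, and Mapt was the gene with an unadjusted p under 0.05 in each. WT females averaged 9.84 and WT males 9.89, whereas KO females averaged 9.87 and KO males 9.80.

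Tardbp (ENSMUSG00000041459) lies on the minus strand at chr4:148612382-148627019. Its lowest, median and highest levels were 8.64, 8.74 and 8.86 in WT brains, 8.68, 8.75 and 8.86 in HET brains and 8.68, 8.77 and 8.84 in KO brains. No HET or KO brain fell outside the range of the WT brains. The KO-WT difference was 0.013 ± 0.022 (adjusted p = 0.876), an interval of -2.14% to 4.04%, and HET minus WT was 0.0019 ± 0.022. Within cohorts KO minus WT was -0.0009 ± 0.031 and 0.033 ± 0.034 for cohort 1 and cohort 2.

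Vcp (ENSMUSG00000028452) lies on the minus strand at chr4:42979963-43000507. The lowest, median and highest levels were 8.46, 8.55 and 8.62 in WT brains, 8.47, 8.57 and 8.67 in HET brains and 8.44, 8.59 and 8.67 in KO brains. The groups overlapped, with 4 HET and 3 KO brains above every WT brain and 1 KO brain below. Between KO and WT the difference was 0.027 ± 0.022 (adjusted p = 0.693), an interval of -1.28% to 5.12%. HET minus WT, 0.039 ± 0.023 (adjusted p = 0.816), was the largest HET difference of the set, with an interval of -0.48% to 6.11%. Within cohort 1 KO minus WT was 0.060 ± 0.029 and it was -0.020 ± 0.034 within cohort 2, and the test between cohorts gave an adjusted p of 0.631.

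Chmp2b (ENSMUSG00000004843) lies on the minus strand at chr16:65539133-65562697. Across brains, its lowest, median and highest levels were 9.07, 9.15 and 9.27 in WT brains, 9.09, 9.16 and 9.22 in HET brains and 9.10, 9.18 and 9.28 in KO brains. All HET brains fell within the WT range, and 1 KO brain lay above it. The KO-WT difference was 0.0093 ± 0.019 (adjusted p = 0.904), an interval of -2.01% to 3.38%, the narrowest of the set. HET minus WT was -0.0097 ± 0.019. Within cohorts KO minus WT was 0.018 ± 0.026 and -0.0029 ± 0.032.

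Tbk1 (ENSMUSG00000020115) lies on the minus strand at chr10:121546455-121586794 and had the lowest p of the set for KO against WT. Its lowest, median and highest levels were 7.49, 7.57 and 7.83 in WT brains, 7.48, 7.64 and 7.79 in HET brains and 7.47, 7.72 and 7.83 in KO brains. The highest KO value and the highest WT value were nearly the same, and 6 of 10 KO brains lay above the WT mean. That WT value was of replicate 6, which stood apart from the other WT brains, the next of which was at 7.66. KO minus WT was 0.063 ± 0.032 with an unadjusted p of 0.0566 and an adjusted p of 0.435, an interval of -0.13% to 9.20%. HET minus WT was 0.027 ± 0.032 and KO minus HET 0.035 ± 0.032. Leaving out each brain in turn moved KO minus WT between 0.050 and 0.080 and the adjusted p between 0.267 and 0.612.

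Split by cohort, KO minus WT for Tbk1 was 0.11 ± 0.042 (unadjusted p = 0.0169, adjusted p = 0.200) within cohort 1 and -0.0063 ± 0.043 within cohort 2. Mean levels in cohort 1 were 7.65 for WT, 7.69 for HET and 7.76 for KO brains, and in cohort 2 they were 7.54, 7.54 and 7.53. The test of the difference between cohorts gave -0.12 ± 0.063 (adjusted p = 0.621), so the cohorts were not shown to differ. By sex, KO minus WT was 0.0098 ± 0.040 within females and 0.13 ± 0.048 within males (unadjusted p = 0.0192, adjusted p = 0.297 in limma). The test of the difference between sexes gave 0.12 ± 0.063 (adjusted p = 0.728), so the sexes were not shown to differ either.

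Optn (ENSMUSG00000026672) lies on the minus strand at chr2:5020642-5064051 and had the widest interval of the set. Across brains, its lowest, median and highest levels were 6.16, 6.26 and 6.39 in WT brains, 6.02, 6.29 and 6.42 in HET brains and 6.13, 6.30 and 6.49 in KO brains. KO brains spread to both sides of the WT range, with 2 above every WT brain and 2 below. The fitted KO-WT difference was 0.016 ± 0.037 (adjusted p = 0.919), an interval of -4.06% to 6.55%. HET minus WT was 0.010 ± 0.038. Within cohorts KO minus WT was 0.044 ± 0.044 and -0.029 ± 0.072.

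Sqstm1 (ENSMUSG00000015837) lies on the minus strand at chr11:50199366-50210827. The lowest, median and highest levels were 10.16, 10.20 and 10.28 in WT brains, 10.14, 10.22 and 10.34 in HET brains and 10.15, 10.24 and 10.34 in KO brains. The groups overlapped, with 2 KO and 2 HET brains above every WT brain and 1 KO and 2 HET brains below. The fitted difference of KO from WT was 0.021 ± 0.020 (adjusted p = 0.738), an interval of -1.33% to 4.31%, and HET minus WT was 0.0059 ± 0.020. By sex, KO minus WT was -0.016 ± 0.032 within females and 0.058 ± 0.025 within males (unadjusted p = 0.0373, adjusted p = 0.361 in limma). The test of the difference between sexes gave 0.0745 ± 0.039 (adjusted p = 0.728), so the sexes were not shown to differ. Within cohort 1 and cohort 2 KO minus WT was 0.024 ± 0.030 and 0.016 ± 0.028.

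Between cohorts the picture was different. Cohort 2 was lower than cohort 1 for 4 of 7 genes in limma's test, Tardbp, Vcp, Tbk1 and Sqstm1, where 9.42% of all genes were lower and 17.5% differed in either direction. The 4 genes encode an RNA-binding protein, an ATPase, a kinase and its autophagy receptor. Median cohort differences were -0.072 for the set and 0.0055 for all genes.

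The proximal promoters of these 4 genes are shown because the genes passed the test between cohorts. They are taken from RefSeq (GRCm38.p6, the assembly of mm10), in which 6 of the 7 genes, all but Mapt, matched an entry. Each runs 5′ to 3′ on the gene's strand, which is the minus strand for all 4, and is the longest unbroken run, within the 250 bases before the transcript start, that lies in no annotated exon of any gene. Tardbp is shown for chr4:148627020-148627246, Vcp for chr4:43000508-43000757, Tbk1 for chr10:121586795-121587044 and Sqstm1 for chr11:50210828-50210889. Capitals mark matches, on either strand, to GGGCGG (the GC box), CCAAT (the box of that name), TATAAA (the TATA box), TGACNNNGC (antioxidant response element core) or CACGTG (E-box core of lysosomal genes).
Tardbp: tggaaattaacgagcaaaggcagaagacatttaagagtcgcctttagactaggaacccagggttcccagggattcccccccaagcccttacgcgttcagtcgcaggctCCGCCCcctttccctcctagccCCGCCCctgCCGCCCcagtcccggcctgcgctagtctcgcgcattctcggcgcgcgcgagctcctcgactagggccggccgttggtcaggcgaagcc
Vcp: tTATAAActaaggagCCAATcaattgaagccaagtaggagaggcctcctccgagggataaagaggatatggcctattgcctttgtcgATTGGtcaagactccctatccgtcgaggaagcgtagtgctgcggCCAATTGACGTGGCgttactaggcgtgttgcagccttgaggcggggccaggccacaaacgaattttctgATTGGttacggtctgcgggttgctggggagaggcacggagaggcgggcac
Tbk1: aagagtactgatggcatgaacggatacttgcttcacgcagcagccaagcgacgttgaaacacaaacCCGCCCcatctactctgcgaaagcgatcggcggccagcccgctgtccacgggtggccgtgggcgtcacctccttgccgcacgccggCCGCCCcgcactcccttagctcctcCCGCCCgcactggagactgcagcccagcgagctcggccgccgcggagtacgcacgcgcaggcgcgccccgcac
Sqstm1: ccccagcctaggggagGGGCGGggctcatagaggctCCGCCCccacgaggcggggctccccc
In these stretches Tardbp held 3 matches to GGGCGG, Tbk1 3 and Sqstm1 2, and Vcp held none of that motif. The whole 250-base window of Sqstm1 held 3. Vcp held 4 matches to CCAAT, 1 to TATAAA and 1 to TGACNNNGC, the last directly after a CCAAT match with no shared base. CACGTG was found in none of the 4. Among the 250-base windows of 32851 RefSeq promoters, 32.7% held GGGCGG, 33.9% CCAAT, 12.4% TATAAA, 10.2% TGACNNNGC and 6.02% CACGTG. A match is a run of letters and not a measured site, and no motif searched was found in all 4 stretches. Any part of these promoters in the cohort differences was not tested.

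Tbk1 had the largest cohort difference of the set. Its lowest, median and highest levels were 7.56, 7.71 and 7.83 in the 18 brains of cohort 1 and 7.47, 7.53 and 7.64 in the 12 brains of cohort 2. Of the 12, 8 lay below every brain of cohort 1 and all 12 below its mean. The fitted difference was -0.16 ± 0.027 (adjusted p = 0.000206), or -10.5% with an interval of -13.9% to -6.98%. It had the same direction in each genotype, with means of cohort 2 lower by 0.11 (WT), 0.15 (HET) and 0.23 (KO) on the log2 scale.

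Vcp ran from 8.46 through a median of 8.61 to 8.67 in cohort 1 and from 8.44 through 8.52 to 8.57 in cohort 2. The cohorts overlapped, although all 12 brains of cohort 2 lay below the mean of cohort 1. The difference was -0.087 ± 0.019 (adjusted p = 0.00207), or -5.86%. Means by genotype differed by -0.044 in WT, -0.10 in HET and -0.13 in KO brains.

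Sqstm1 ran from 10.15 through 10.26 to 10.34 in cohort 1 and from 10.14 through 10.18 to 10.22 in cohort 2, a narrow band at the lower end of cohort 1. The difference was -0.072 ± 0.017 (adjusted p = 0.0036), or -4.87%. Tardbp ran from 8.68 through 8.79 to 8.86 in cohort 1 and from 8.64 through 8.70 to 8.77 in cohort 2, with a difference of -0.071 ± 0.019 (adjusted p = 0.00821), or -4.80%. For each of these genes all 12 brains of cohort 2 lay below the mean of cohort 1.

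The other genes did not pass the test between cohorts. Optn differed by -0.077 ± 0.032 (unadjusted p = 0.0225, adjusted p = 0.0957), with 3 of 12 brains of cohort 2 below every brain of cohort 1. Mapt differed by -0.032 ± 0.019 (adjusted p = 0.246) and Chmp2b by 0.018 ± 0.016 (adjusted p = 0.480). The interval for Chmp2b, -1.01% to 3.64%, lay wholly above the intervals of Tardbp, Vcp, Tbk1 and Sqstm1. Differences between genes were not tested.

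RIN averaged 9.39 in cohort 1 and 9.23 in cohort 2, and the fit included it. Without RIN in the fit, a setting added after the data had been seen, the same number of genes, 4 of 7, passed. Some cell type markers also passed the test between cohorts, where 17.5% of all genes passed in either direction. The counts by list are small and are given as a description. Of the oligodendrocyte markers 3 of 8 were higher in cohort 2 (Mbp by 0.19, Mog by 0.15, Mag by 0.082) and their summed level ran from 13.05 to 13.37 in cohort 1 and from 13.09 to 13.47 in cohort 2. Of the endothelial markers 3 of 6 were higher, with summed levels of 9.86 to 10.33 and 10.07 to 10.40. Of the neuronal markers 2 of 8 were lower, Tubb3 by 0.069 and Syt1 by 0.058, with summed levels of 13.96 to 14.06 and 13.97 to 14.05. Of the astrocyte markers 1 of 8 was lower, Slc1a2 by 0.11. Differences above 0, passing or not, were held by 3 of 8 neuronal and 4 of 8 astrocyte markers. Microglial, oligodendrocyte precursor, choroid plexus and blood markers held 0 genes that passed. No marker of these lists was at 0. Their part in the cohort differences was not tested, and what else differed between the cohorts cannot be told apart from the cohort itself.

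**Figure D3:**
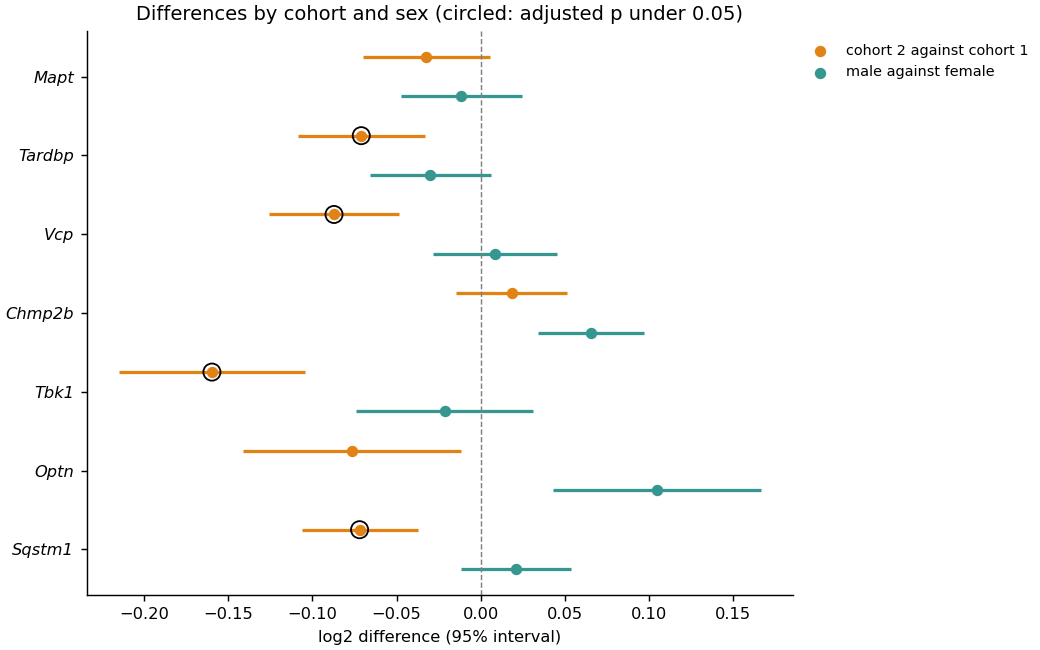
Fitted log2 differences of each gene between cohorts (cohort 2 minus cohort 1) and between sexes (male minus female), as points with 95% intervals, where a ring marks an adjusted p under 0.05. The rings are on Tardbp, Vcp, Tbk1 and Sqstm1 for cohort, and the sex differences of Chmp2b and Optn have intervals above 0 but no ring.

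Between the sexes, 0 of 7 genes passed in limma's test, where 0.333% of all genes passed, and 2 of 7 had an unadjusted p under 0.05. Chmp2b ran from 9.07 through a median of 9.14 to 9.18 in the 15 females and from 9.13 through 9.19 to 9.28 in the 15 males. Of the males 13 lay above the female mean and 9 above every female. Male minus female was 0.066 ± 0.015 (unadjusted p = 0.000201, adjusted p = 0.0561), an interval of 2.39% to 6.95%. The difference of means was 0.079 for WT, 0.043 for HET and 0.073 for KO brains, and 0.058 in cohort 1 and 0.076 in cohort 2. This call depended on the filter on low values: with no filter the adjusted p was 0.00135, and with only genes of a mean above 2 it was 0.0475. The unadjusted p of limma's test was 0.00019 and 0.000201 in these settings, so the change lay in the adjustment. It came from which other genes entered, 34871 with no filter against 23695, and not from the values of Chmp2b. The lower adjusted p is thus no added evidence of a sex difference. The shares of all genes that passed between sexes in them were not computed.

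Optn ran from 6.02 through 6.26 to 6.34 in females and from 6.17 through 6.36 to 6.49 in males, with 8 of 15 males above every female. Male minus female was 0.10 ± 0.030 (unadjusted p = 0.00164, adjusted p = 0.127, and 0.00907 with no filter), an interval of 3.04% to 12.2%. The difference of means was 0.077 for WT, 0.084 for HET and 0.15 for KO brains. The other genes had sex differences between -0.030 (Tardbp) and 0.021 (Sqstm1), with every interval including 0.

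Levels of some genes of the set rose and fell together from brain to brain. Pearson correlations over the 30 brains were computed for the 21 pairs, with 2-sided permutation tests (100000 resamples) and Benjamini-Hochberg adjustment over the pairs. On the deposited values 6 of 21 pairs passed, all positive. Brains were permuted across cohorts, so these p-values include the cohort differences. The share of all gene pairs that would pass was not computed. Vcp and Sqstm1 had r = 0.72 (rho = 0.77; adjusted permutation p = 0.00021 for each), Vcp and Tbk1 r = 0.70 (rho = 0.72), and Tbk1 and Sqstm1 r = 0.69 (rho = 0.69). The others were Tardbp and Tbk1 at 0.66, Tbk1 and Optn at 0.52, and Mapt and Tardbp at 0.48. Tbk1 was thus in 4 of the 6 pairs.

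The 3 highest correlations were lower within each cohort than over all brains. Within cohort 1 (18 brains) and cohort 2 (12 brains), r was 0.54 and 0.33 for Vcp and Sqstm1, 0.35 and 0.51 for Vcp and Tbk1, and 0.38 and 0.34 for Tbk1 and Sqstm1. Without the 2 brains farthest from the median of the gene named first, these pairs gave 0.73, 0.66 and 0.62. On the residuals after genotype, sex, cohort and RIN, 0 of 21 pairs passed, and the highest was Tbk1 and Optn at r = 0.53 (unadjusted permutation p = 0.0025, adjusted p = 0.0525). Vcp and Sqstm1 had r = 0.48 on residuals (adjusted permutation p = 0.0777). Tardbp and Vcp, at 0.35 on the deposited values, stood at -0.16 and -0.14 within the cohorts.

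**Figure D4:**
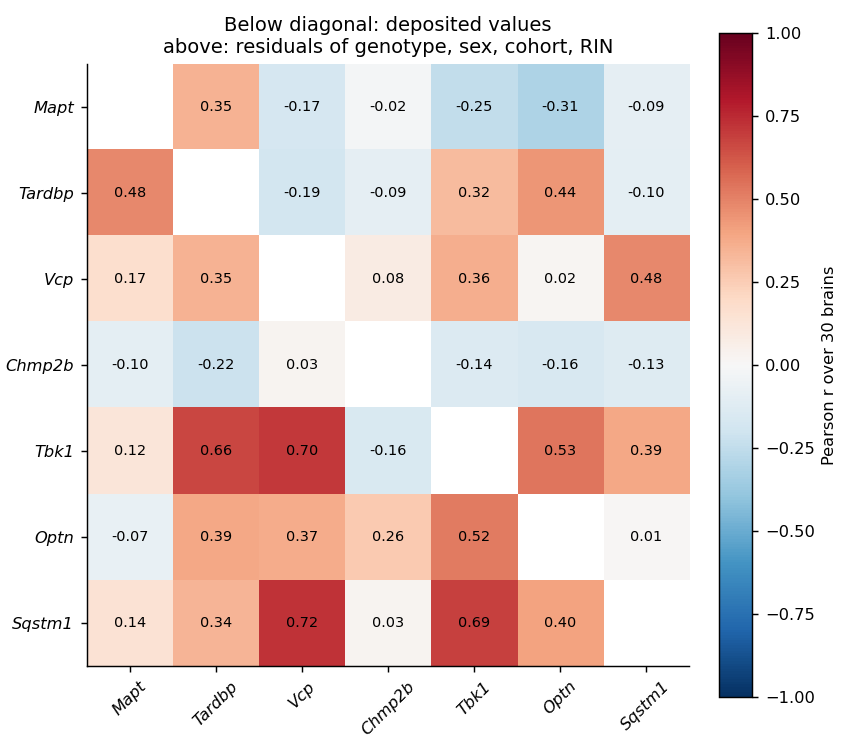
Pearson r over 30 brains for each pair of genes, on the deposited log2 values below the diagonal and on residuals after genotype, sex, cohort and RIN above it, with colour from blue (-1) to red (1). The highest values lie among Vcp, Tbk1 and Sqstm1 below the diagonal (0.69 to 0.72) and are lower above it (0.36 to 0.48).

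Over all 23695 genes, the residuals most like those of each gene are given as a description, since the highest of so many correlations is high by selection. Tardbp was most like Ttc14 (r = 0.83), Ogt (0.82), which adds O-GlcNAc to proteins, and Hnrnpa2b1 (0.82), another RNA-binding protein gene mutated in ALS. Vcp was most like Eif3c (0.77), a translation initiation factor subunit, Gm9816 (0.77) and Usp5 (0.75), a deubiquitinase. Optn was most like the ubiquitin ligase gene Trip12 (0.85), Acsl6 (0.77) and Zfp160 (0.77), and Tbk1 was most like Ssb (0.78), Ppp4r4 (0.74) and Armcx1 (0.71). Chmp2b had Aasdhppt (0.76), Gm16276 (0.71) and Gm12993 (0.71), Mapt had Gm10605 (0.72), Ppcdc (0.68) and Zer1 (0.67), and Sqstm1 had Mia (0.71), Gm1821 (0.67) and Cabp4 (0.66).

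The partners of these proteins were also measured. In 7 lists holding 138 distinct tested genes, 1 gene passed for KO against WT (0.725%, near the 1.00% of all genes), and none passed for HET against WT or KO against HET. That gene was Bin1, a membrane-bending protein that binds tau and a risk gene of Alzheimer's disease. Its lowest, median and highest levels were 10.52, 10.60 and 10.68 in WT brains, 10.46, 10.55 and 10.64 in HET brains and 10.35, 10.47 and 10.61 in KO brains. 7 of 10 KO brains were below every WT brain, and KO minus WT was -0.11 ± 0.026 (adjusted p = 0.029). By cohort, KO minus WT was -0.13 ± 0.029 within cohort 1 (adjusted p = 0.0282) and -0.085 ± 0.054 within cohort 2 (adjusted p = 0.999). Within cohort 1 alone 5 of the 138 genes passed (3.62%, against 2.03% or 482 of all genes), and within cohort 2 alone 0 did (against 0.0169% or 4 of all genes). Beside Bin1 these were Hnrnpa1, Matr3, Chmp1a and Nfe2l2, which were named after their values were seen and did not pass over all 30 brains.

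The call for Bin1 was lost with genotype as the only term (adjusted p = 0.0582), with WT and KO brains alone (0.0882) and with no intensity trend (0.0537), as well as without any of 8 brains (WT replicates 4, 5, 6 and 8, KO replicates 4, 5, 6 and 8), where it reached 0.0882. Beside it, all 8 oligodendrocyte markers were lower in KO than in WT brains, by 0.14 (Mag) to 0.49 (Opalin), with summed levels of 13.26 to 13.47 in WT and 13.05 to 13.28 in KO brains. The astrocyte marker Gfap (0.22) and the microglial marker C1qb (0.18) were higher and the endothelial marker Tek (-0.21) was lower, each as the 1 marker of its list that passed. These lists were split in direction: 4 of 8 astrocyte, 4 of 8 microglial and 2 of 6 endothelial markers had a difference above 0. Among neuronal, oligodendrocyte precursor, choroid plexus and blood markers 0 passed. Their part in the lower Bin1 level was not tested. Among the other tau relatives, kinases and phosphatase subunits, 0 of 21 passed, and next by p were Ppp2r2a, a phosphatase subunit (0.066 ± 0.022, adjusted p = 0.160), and the kinase gene Fyn (-0.036 ± 0.017, adjusted p = 0.40).

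Of 20 RNA-binding protein genes of the class of TDP-43, 0 passed for KO against WT in limma's test, 8 had an unadjusted p under 0.05, all with higher values in KO, and 19 had a difference above 0. Among all 23695 genes 2846 had an unadjusted p under 0.05, and 53.3% had a difference above 0. Within cohort 1 alone 2 of the 20 passed, Hnrnpa1 (0.18 ± 0.037, adjusted p = 0.0178) and Matr3 (0.097 ± 0.023, adjusted p = 0.0365), and within cohort 2 alone 0 did. Their median difference was 0.042, against 0.0061 for all genes, and it was 0.049 within cohort 1 and 0.028 within cohort 2. Lowest in p were Matr3 (0.071 ± 0.019, adjusted p = 0.0745), Hnrnpa1 (0.12 ± 0.035, adjusted p = 0.115) and Ewsr1 (0.055 ± 0.019, adjusted p = 0.182). Tardbp itself, at 0.013, was below the median of this list. These genes stand in 2 lists each, since the list of 33 other ALS and FTD genes holds them as well. In that list 0 of 33 passed, with a median of 0.015.

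The partners of the other proteins likewise held no gene that passed for KO against WT over all brains. Of 23 VCP cofactors 0 passed, with Vcpip1 at 0.065 ± 0.023 (adjusted p = 0.206) and Ufd1 (Ufd1l in the table) at 0.055 ± 0.025. Of 15 genes of ESCRT-III and its disassembly 0 passed, with Chmp1a at -0.053 ± 0.020 (adjusted p = 0.264; -0.090 and adjusted p = 0.0437 within cohort 1), Vta1 at -0.066 ± 0.026 and Chmp4c at 0.15 ± 0.066. Of 11 genes around TBK1 0 passed, with the DNA sensor gene Cgas (Mb21d1 in the table) at -0.34 ± 0.13 (adjusted p = 0.254), Irf3, a transcription factor that TBK1 phosphorylates, at 0.11 ± 0.049, and Ticam1 at 0.087 ± 0.055. Of 22 autophagy receptors, ATG8 proteins and partners 0 passed, with Myo6, a motor that binds OPTN, at -0.085 ± 0.025 (adjusted p = 0.107), Rb1cc1 at 0.055 ± 0.023 and Nfe2l2 at 0.093 ± 0.042. Within cohort 1 Nfe2l2 was higher in KO by 0.21 ± 0.044 (adjusted p = 0.0238). List medians lay between -0.013 and 0.042.

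**Figure D5:**
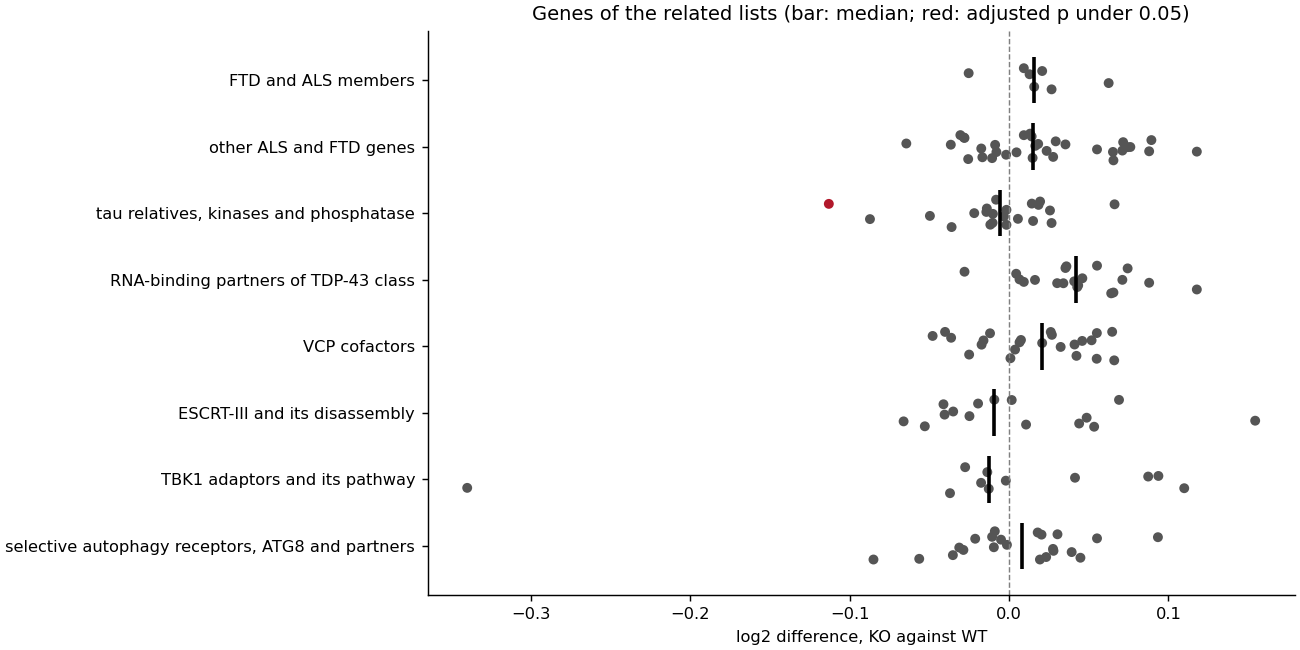
Log2 difference between KO and WT brains of every gene of the set and of the 7 related lists (points) with the median of each list (bars). Bin1, at -0.11, is the gene in red, with an adjusted p under 0.05, and the RNA-binding list has the highest median, 0.042.

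More of the listed genes passed between cohorts than between genotypes, as was so for all genes (17.5% against 1.00% for KO against WT). Of the 138 genes 12 were higher and 28 lower in cohort 2, or 29% against 17.5% of all genes. Among the RNA-binding genes 8 of 20 were lower and 0 higher, including Sfpq (-0.20) and Tia1 (-0.14), on the side of Tardbp. Of the VCP cofactors 4 of 23 were lower and 0 higher, near the share of all genes, with Ubxn2b at -0.15, Ubxn2a at -0.13 and Ufd1 at -0.085. The median of that list was 0.0063, against 0.0055 for all genes, and 15 of 23 cofactors had a difference above 0. Of the tau list 7 of 22 were lower, among them Mark4 (-0.15), Mark3 (-0.12) and Map2 (-0.062), and 2 were higher. The autophagy list split: 5 of 22 were higher, among them the ATG8 genes Map1lc3b (0.11), Map1lc3a (0.080) and Gabarap (0.098), and 3 lower, Ncoa4 (-0.16), Calcoco1 (-0.11) and Tollip (-0.046). In the ESCRT-III list 3 of 15 were higher and 1 lower, and Tank, which binds TBK1, was the gene of the TBK1 list that passed (0.093), opposite in sign to Tbk1.

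Several genes of the set overlap another gene, and whether reads were counted by strand is not given in the sources used here, so their reads cannot be told apart where exons overlap. By the gene positions in the deposited table, Tardbp shares 3118 bases with Masp2, Vcp 3678 with 1700022I11Rik and Sqstm1 750 with 3010026O09Rik. Optn shares 3854 with 4930551O13Rik, and Mapt 8460 with Gm11659 and 133 with Gm22743. Shared bases are those of whole gene spans, introns included. All the overlapping genes are on the opposite strand in the GENCODE M21 annotation. Their KO-WT differences were -0.043 ± 0.048 for Masp2, 0.025 ± 0.032 for 1700022I11Rik, 0.022 ± 0.048 for 3010026O09Rik and -0.015 ± 0.098 for 4930551O13Rik. The overlapping genes of Mapt had low mean levels and wide errors, with -0.62 ± 0.40 for Gm11659 (mean level 1.36, adjusted p = 0.584) and -0.50 ± 0.44 for Gm22743 (mean level 0.11, adjusted p = 0.717). None of the 6 passed. Between cohorts Masp2 was lower by 0.18 (adjusted p = 0.00316), in the same direction as Tardbp, and 4930551O13Rik by 0.25 (adjusted p = 0.0349), in that of Optn. Vcp also has a processed pseudogene, Vcp-rs, with 99.1% identity over 2421 bases, whose level (7.43) and cohort difference (-0.13, adjusted p = 0.000948) are uncertain, as is the level of Vcp, where reads fit both. Chmp2b and Tbk1 had no overlapping gene and no near copy.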

How the data were processed

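RNA-seq values of 30 mouse cerebral hemispheres were analysed. The authors deposited 1 table of log2 RPKM after conditional quantile normalization, per the file headers, with 34871 genes; reads were mapped to mm10, and TopHat2 2.0.12 and Bowtie 1.1.0 are named, per the submitters' processing notes. The tool that counted reads, its annotation and its strand setting were not stated in the labels or headers. Normalization with length and GC content brings libraries to a near common distribution, so a change shared by all genes could not be seen. No pseudocount was added.

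Groups were taken from the labels. Genes with a mean value above 0 (23695) were fitted with limma 3.58.1 in R 4.3.3 over the 30 libraries, on terms for genotype, RIN, sex and cohort, eBayes with an intensity trend, 2-sided tests and Benjamini-Hochberg adjustment over all genes kept. The fit was tested on simulated data. Interactions, within-cohort and within-sex fits used the same settings. Permutation tests and correlations used numpy 2.4.6, with ranks for rho from scipy 1.17.1. Near copies were sought with BLAST 2.17.0 (identity of at least 95% over 200 bases).

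The members and lists were chosen with earlier results of these data known. Named are Tmem106b, the members, for each list the 3 genes of lowest p for KO against WT, for each member the 3 genes most alike in residuals, and overlapping genes; examples for cohort and single markers were picked among the genes that passed. Some genes that this rule names are not reported here. In the ESCRT-III list 1 of 16 symbols, Chmp1b, did not match a row. Alternatives varied the terms, samples, filter, spread estimate, scaling, library weights and test, and left out each brain in turn.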

Additional observations from a re-analysis of the deposited data

Results flagged for a closer look

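Each gene's lowest and highest brain was compared with the nearest brain of its genotype, in 21 groups of 10 brains, and chance sets apart about 1 in 20 such groups. A brain stood apart from the other 9 in 2 groups. Tbk1 was 7.8277 log2 RPKM in WT replicate 6, and the next WT brain was at 7.66, a gap of 0.484 of the whole WT range. Optn was 6.0219 in HET replicate 7, and the next HET brain was at 6.21, a gap of 0.471 of the HET range. Both gaps are just past the 95% critical value for 10 brains.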

How the results depend on the processing

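No paired analysis was possible because replicate numbers were given in accession order and pair no mice. Over all alternatives run, 0 of 840 member differences between genotypes passed (lowest adjusted p 0.267), and member counts stayed at 0 for the 3 genotype comparisons, the slope and both interactions. HET minus WT changed sign for Mapt (-0.0026 with genotype only, -0.00255 as a difference of means), Tardbp (-0.0019 with genotype only, -0.00192 as a difference of means, -0.0038 with 2 genotypes, -0.0051 with library weights) and Optn (-0.001 and -0.00101). Leaving out each brain, HET minus WT ran from -0.0075 to 0.0121 for Mapt, -0.006 to 0.0123 for Tardbp, -0.0042 to 0.0305 for Optn and -0.0072 to 0.0178 for Sqstm1, and KO minus HET from -0.0144 to 0.0209 for Optn. The KO-WT difference by sex ran from -0.017 to 0.0228 for Tardbp and -0.0082 to 0.0301 for Chmp2b, and that by cohort from -0.0398 to 0.0051 for Chmp2b and -0.0174 to 0.0054 for Sqstm1. Members that passed between sexes numbered 2 with no filter, 1 with a mean above 2, 1 with library weights, and 0 to 1 leaving out each brain (Chmp2b without WT replicate 4 or HET replicate 1). The shares of all genes that passed between sexes in these settings were not computed, so these counts cannot be set beside them. Listed genes that passed for KO against WT numbered 0 with genotype only, 0 with 2 genotypes and 0 with no intensity trend, and 0 to 2 leaving out each brain: 0 without the 8 brains named for Bin1, and Bin1 with Matr3 without WT replicate 9, HET replicate 1, HET replicate 6 or KO replicate 10. Between cohorts 4 members passed in every other alternative and 4 to 5 leaving out each brain (Optn without HET replicate 8, adjusted p = 0.048), with 37 to 44 and 34 to 47 listed genes. Pairs of members that passed numbered 0 with residuals. The cause of these changes was not tested. Depth is unknown, so counting error cannot be separated from the spread between mice.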
